A study of Mus musculus with 2 samples.

Results

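The 42 enzymes described here remove nitrogen and carbon from amino acids in the liver: 6 of the urea cycle, counting the synthase of its activator, and 36 of glutamate handling and of aromatic amino acid, tryptophan, serine, glycine, histidine, proline, lysine, sulfur amino acid, choline-derived and branched-chain amino acid breakdown. They were chosen by gene symbol from textbook pathways, and all 42 were among the 31827 gene names on the array and the 15447 measured above background on both arrays. The study profiled total RNA from C57BL/6 mouse liver with Cy3-labelled, 1-colour Agilent arrays. It asked how the liver changes when the transcription factor Snail is forced on in hepatocytes, under a title that names steatohepatitis and liver tumours. The first group was 1 wild-type liver. The second was 1 liver of the genotype Alb-Cre;CAG-floxed neo-Snail, in which a Cre recombinase under the albumin promoter, active in hepatocytes, acts on a floxed neo-Snail transgene under the ubiquitous CAG promoter. No age, sex or diet is stated for either animal, nor whether tumour tissue was taken, and both groups are single livers.

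Ammonia freed from amino acids is turned into urea almost entirely in the liver, by a cycle whose first steps lie in the mitochondrion and whose later steps lie in the cytosol. Aminotransferases pass amino groups to glutamate and aspartate, which feed that cycle, and dedicated pathways then degrade each carbon skeleton. Hepatocytes near the portal vein carry most of the urea cycle and of serine and histidine breakdown, while those near the central vein capture remaining ammonia as glutamine. Inherited loss of single enzymes in these pathways causes disorders such as hyperammonaemia, tyrosinaemia, alkaptonuria and primary hyperoxaluria.

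The scanner software placed 50.7% of 43020 non-control spots well above background for wild-type and 54.0% for the library labelled Snail. All log2 differences below are those of scaled signals, the library labelled Snail minus wild-type, where scaling divides each array by the 75th percentile of its signals, 232.7 for wild-type and 302.1 for the other. Signals themselves are printed unscaled, so equal signals correspond to a lower scaled value in the library labelled Snail. Each group had 1 array and no replicate, so no test was run, and differences between animals cannot be set apart from those between genotypes. Spots of 65 probes printed repeatedly, with signals above 1000, gave an SD of the log2 difference between spots at matching positions of 0.04, as the median over probes. For 110 probes with signals of 100 to 1000 it was 0.07. Both cover only noise between spots within these arrays, and effects shared by all spots of an array are not in them. Snai1 itself had signals of 23.2 and 22.3 and a log2 difference of -0.44. Both signals were dim, near the lowest well above background, 13.8 for wild-type and 12.9 for the other. For 64 repeated probes with signals under 100 the SD between spots was 0.19. No source used here says whether the transgene carries this probe's sequence, so Snai1 leaves the labels unchecked.

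Of 8 hepatocyte markers 7 were found by name, and all 7 were well above background on both arrays. Each had a lower scaled signal in the library labelled Snail, Apoa1 and Cyp2e1 by at least 2-fold. Their median log2 difference was -0.65, and their summed scaled signal was 3415 in wild-type and 2127 in the other. To set beside this and the later marker counts, 6.34% of all 15447 measured genes passed 2-fold downwards and 3.97% upwards. Values below 0 were found for 52.6% of them. For the 4132 genes with a geometric mean signal of 1000 or more, these shares were 7.48%, 2.25% and 59.8%. Alb, which encodes albumin, had signals of 226792 and 190813. In whole tissue, fewer hepatocytes and less RNA per hepatocyte cannot be told apart. Summed scaled signals over all 8 Kupffer cell and macrophage markers were 71.2 and 86.8, and 1 of the 7 measured on both arrays was at least 2-fold higher. Those of 8 neutrophil markers were 76.3 and 81.1, mostly from Csf3r, with signals of 16984 and 22311. Their median log2 difference was 0.51 over the 6 measured on both arrays. S100a8 was 3.96-fold, S100a9 2.96-fold and Ly6g 1.89-fold higher. Csf3r, Elane and Camp lay near 0, with log2 differences of 0.02, 0.10 and -0.11. Mpo and Cxcr2 passed background in the library labelled Snail alone, at least 2.08-fold and 1.16-fold higher. Sums of 8 sinusoidal endothelial markers were 43.5 and 41.8, with 1 of 8 past 2-fold, higher. Stellate cell markers summed to 51.8 and 28.5, mostly from Dcn, with signals of 11549 and 7804. Of the 6 measured on both arrays 4 were below 0, among them Lrat, 2.01-fold lower. Col1a1 was 2.50-fold and Col3a1 1.94-fold higher. Acta2, with signals of 14.8 and 36.3, passed background in the library labelled Snail alone. Bile duct markers summed to 0.494 and 0.858, and the 2 measured on both arrays were higher, Sox9 by 2.92-fold and Spp1 by 1.49-fold. Krt19, Krt7 and Epcam were not well above background on either array. Markers of T and NK cells summed to 3.52 and 3.31, with 0 of 6 measured members 2-fold apart, and 1 of 5 measured B cell markers was at least 2-fold higher. The part of cell composition in the differences below was not tested.

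Scaled signals of amino acid breakdown enzymes were mostly lower in the library labelled Snail. Got1, Agxt, Arg1, Afmid, Tdo2, Tat, Gpt2, Asl and Hgd were at least 2-fold lower, and none of the 42 was at least 2-fold higher. These 9 were 21.4% of the members. The same size of difference was met downwards by 6.34% and upwards by 3.97% of all 15447 measured genes. Because 36 of the 42 members had signals above 1000, the share among the 4132 genes with a geometric mean signal of at least 1000 is also given, 7.48% lower and 2.25% higher. Many members were brighter still. Of the 27 with a geometric mean signal of at least 5000, 5 (18.5%) were at least 2-fold lower. Among all 1624 genes of that signal 8.62% were lower and 1.11% higher, with a median log2 difference of -0.13. The median log2 difference of the members was -0.51, against -0.03 for all genes and -0.10 for the genes of high signal. With the filter, 36 of the 42 members lay below the median of all genes. With dim probes kept, each array's signals were raised to its lowest signal well above background, 13.8 for wild-type and 12.9 for the other. The median of all genes was then -0.47, and 21 members lay below it. That median is the value that scaling gives any gene at both floors, so it says nothing about the members' contrast with all genes. Of the members 33 lay below the median of genes of high signal with and without the filter. Values were below 0 for 36 members (85.7%), as for 52.6% of all genes and 59.8% of those of high signal. With quantile normalization, which sets the arrays to one distribution, 30 members were below 0 and the median was -0.34. At 1.5-fold, 19 members (45.2%) were lower and 1 was higher, beside 14.5% and 10.0% of all genes and 17.8% and 5.08% of those of high signal.

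**Figure D1:**
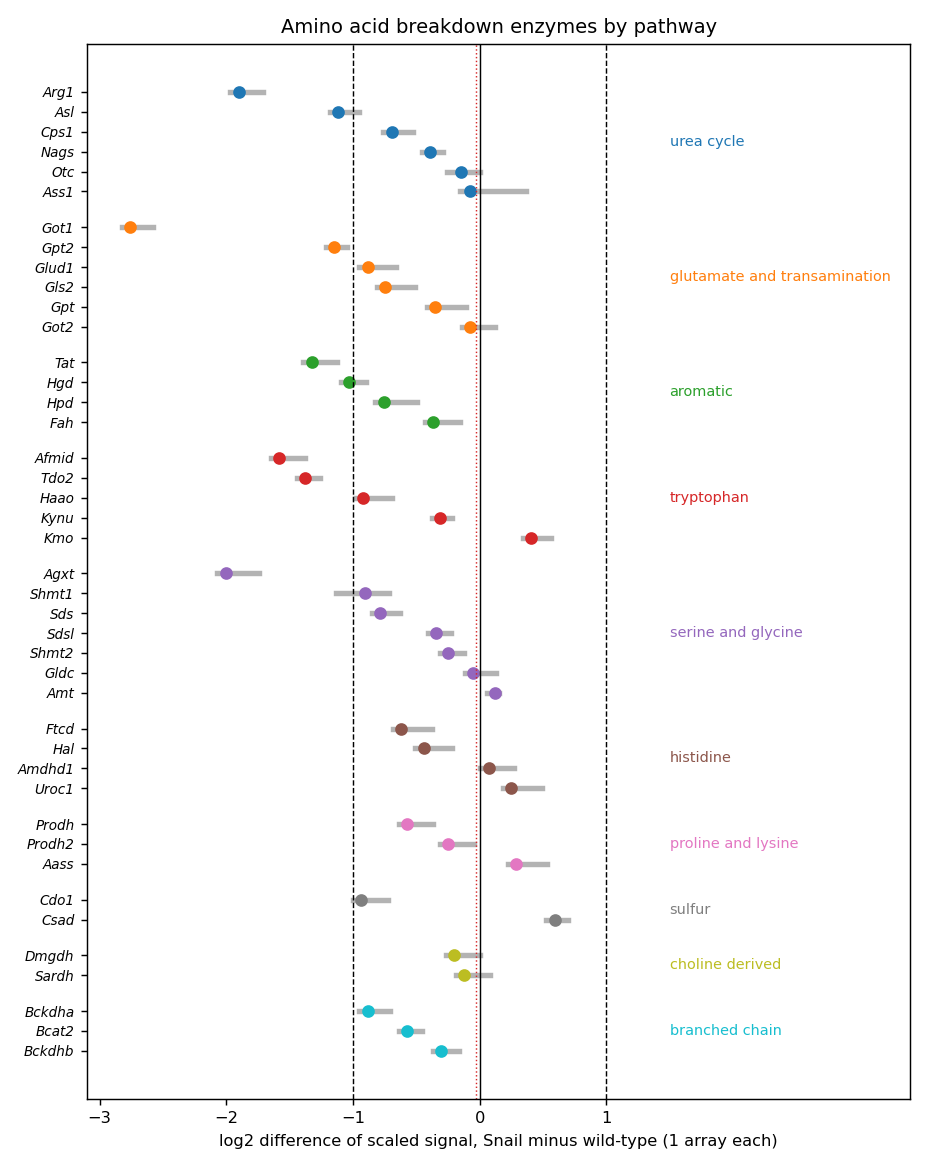
Log2 difference of scaled signal (horizontal axis, library labelled Snail minus wild-type, 1 array each) for each of the 42 enzymes, grouped and coloured by pathway. Grey bars span the values over 10 settings of the processing, dashed lines mark 2-fold, and the dotted line marks the median of all genes, -0.03; Got1 lies farthest left at -2.76 and Csad farthest right at 0.59.

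**Figure D2:**
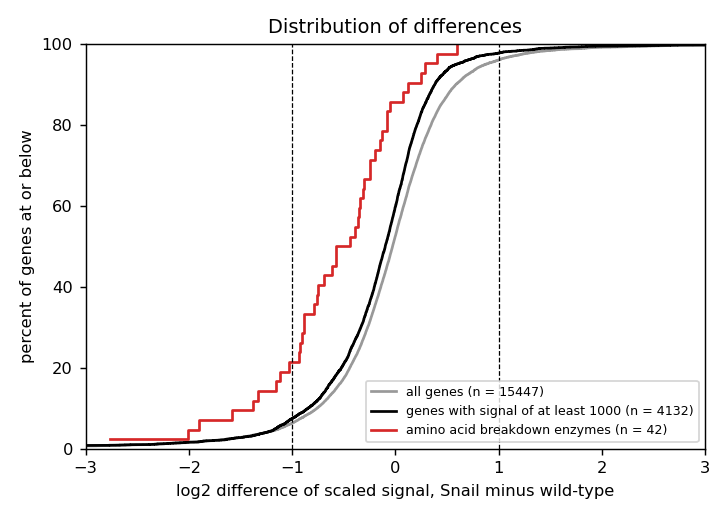
Cumulative percent of genes (vertical axis) at or below each log2 difference (horizontal axis, library labelled Snail minus wild-type) for all 15447 genes, for the 4132 with a geometric mean signal of at least 1000, and for the 42 enzymes. At the left dashed line, 2-fold lower, the curves stand at 6.34%, 7.48% and 21.4%.

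The 2-fold line passed through a dense stretch of values. Just inside it lay Hgd, at -1.03, and Asl, at -1.12. Just outside lay Cdo1, which oxidizes cysteine, at -0.93, Haao, which makes the precursor of quinolinate, at -0.92, and Shmt1, at -0.91. Over the 10 settings of the processing 7 members were at least 2-fold lower in every one, and Asl, Hgd and Shmt1 were so in some. These settings are not separate checks. Both changes of the filter and naming by accession moved no member, and median centring shifted all by the same 0.06. The authors' value table nearly repeated quantile normalization. The number of members lower was 8 with normexp background correction, where 3.7% of all genes were lower and 1.92% higher. It was 7 in the authors' value table and with quantile normalization, with 5.76% and 4.01% in either, and 7 with loess, with 5.95% and 3.85%. It was 9 with median centring (7.26% and 3.42%), with a stricter filter on dim probes (5.86% and 2.53%), with no such filter (3.67% and 2.44%) and with naming by accession (6.34% and 3.96%). Taking the brightest probe gave 10 members, with 6.56% and 3.98% of all genes. In each of these settings 0 members were at least 2-fold higher. The members' share lower exceeded that of all genes throughout, as even 7 of the 42 members is a larger share than 7.26%.

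Of the urea cycle, Arg1 and Asl were at least 2-fold lower. Arg1, the liver arginase that splits arginine into urea and ornithine, had a wild-type signal of 18434 and a signal of 6400 in the library labelled Snail, a log2 difference of -1.90 or 3.74-fold lower. Its signal was well below that of wild-type even before scaling. Asl, which cleaves argininosuccinate to arginine and fumarate, had signals of 9009 and 5393, 2.17-fold lower, and its log2 difference was -0.96 in the authors' value table. Cps1, which fixes ammonia as carbamoyl phosphate and opens the cycle, had signals of 5561 and 4462 and a log2 difference of -0.69. Nags, which makes the activator that Cps1 needs, had signals of 773.1 and 766.9 and a difference of -0.39. The median of the 6 was -0.54.

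Otc and Ass1 lay close to 0. Otc, the mitochondrial enzyme that joins carbamoyl phosphate to ornithine, was read by 2 probes, one of them printed 10 times on each array. The repeated probe gave signals from 1296 to 1437, median 1343, in wild-type and from 1600 to 1800, median 1695, in the other, and its spots had a mean log2 difference of -0.05 with an SD of 0.05 over 10 spots of these arrays. Scaled differences of single spots ran from -0.13 to 0.03, on both sides of 0. Its other probe had signals of 8933 and 9730 and a log2 difference of -0.25. Ass1, which condenses citrulline with aspartate, had signals of 127096 and 148063 at one probe and 85378 and 110999 at the other. Their log2 differences were -0.16 and 0.00, and their mean of -0.08 became 0.36 with quantile normalization. Neighbouring steps thus had unlike values, from Ass1 at -0.08 to Asl at -1.12 and Arg1 at -1.90.

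The array reads each enzyme through 60-base probes, and 5 are shown because the urea cycle, tyrosine and tryptophan results rest on them and each has a single reading frame without a stop codon. Positions are those of the files on mm9, and an entry longer than the probe spans at least 1 intron.
Arg1, chr10:24636194-24636253, minus strand: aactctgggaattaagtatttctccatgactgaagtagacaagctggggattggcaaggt
Asl, chr5:130487964-130488549, minus strand: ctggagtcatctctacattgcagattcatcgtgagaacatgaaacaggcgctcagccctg
Otc, the probe printed 10 times, chrX:9853843-9877490, plus strand: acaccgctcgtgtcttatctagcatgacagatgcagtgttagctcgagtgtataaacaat
Hpd, chr5:123622237-123624360, minus strand: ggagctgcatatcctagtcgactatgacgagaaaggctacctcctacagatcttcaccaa
Tdo2, chr3:81767918-81770928, minus strand: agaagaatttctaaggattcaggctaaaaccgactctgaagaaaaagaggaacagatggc
Of the 48 probes of the 42 members, 6 span an intron, and all 48 were well above background on both arrays. Of the 6 members with several probes, Shmt1 had the widest gap between them, 0.46 in log2 difference.

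Glutamate and transamination enzymes held the largest single difference. Got1, the cytosolic aspartate aminotransferase, had signals of 23570 and 4509 at its probe at chr19:43574278-43574337 (mm9), a log2 difference of -2.76 or 6.79-fold lower. Only 0.829% of all measured genes had a lower value. Got2, its mitochondrial counterpart, had signals of 9651 and 11875 and a log2 difference of -0.08, so Got1 minus Got2 was -2.69. Across the 10 settings that gap stayed between -2.70 and -2.65, while the Got2 value itself ran from -0.14 to 0.13. Only normexp, quantile normalization, loess and the authors' table gave another gap than the one reported. Median centring, the filters and the choice of probe could not alter it, as each gene had 1 bright probe. Gpt2, the mitochondrial alanine aminotransferase, had signals of 2429 and 1419 and was 2.22-fold lower. For Gpt, the cytosolic form, the signals were 17297 and 17597 and the log2 difference was -0.35. In this pair the mitochondrial form was the lower of the 2, by 0.80. Both enzymes that free ammonia from glutamine and glutamate also had lower scaled signals. Glud1, glutamate dehydrogenase, gave -1.10 and -0.67 at its 2 probes, a mean of -0.88, and Gls2, the liver glutaminase, had signals of 21400 and 16583 and a difference of -0.74. Got1 and Gpt2 were the 2 of 6 past 2-fold, and the group's median was -0.81.

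**Figure D3:**
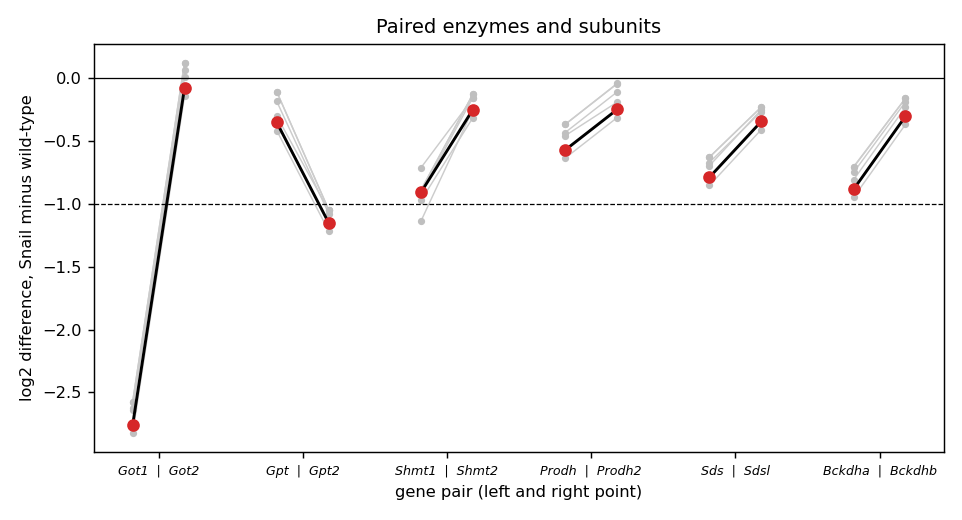
Log2 difference (vertical axis, library labelled Snail minus wild-type, 1 array each) of enzymes or subunits that act in pairs. Red points with black lines are the values reported and grey points with grey lines those of 9 other settings of the processing; Got1 minus Got2 is -2.69 and Prodh minus Prodh2 is -0.32.

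The remaining pairs lay closer together on the log2 scale in the values reported, though with the brightest probe Shmt1 minus Shmt2 was -0.89, wider than the alanine aminotransferases. Shmt1, the cytosolic serine hydroxymethyltransferase, was at -0.91, and Shmt2, the mitochondrial one, at -0.25. Sds, serine dehydratase, was at -0.79 and its relative Sdsl at -0.34. Prodh, which oxidizes proline, was at -0.57, and Prodh2, which oxidizes hydroxyproline, at -0.25. The branched-chain keto acid dehydrogenase subunits Bckdha and Bckdhb were at -0.88 and -0.30. In each of these 4 pairs the first was the lower of the 2 at every setting tried.

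Scaled signals of all 4 tyrosine breakdown genes were lower in the library labelled Snail, from the first step on. Tat, the tyrosine aminotransferase and a classical target of glucocorticoids in liver, had signals of 19635 and 10169 at chr8:112523207-112523266 (mm9), 2.51-fold lower. Hgd, the homogentisate dioxygenase lost in alkaptonuria, had signals of 3662 and 2330, 2.04-fold lower, but -0.90 on the log2 scale with quantile normalization, short of 2-fold. Hpd, which makes homogentisate, had signals of 41054 and 31537 and a log2 difference of -0.76. Fah, the last enzyme, whose loss causes tyrosinaemia, had signals of 12474 and 12566 and a difference of -0.37. All 4 were below 0 at every setting, with a median of -0.89.

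The tryptophan pathway to quinolinate held 2 enzymes at least 2-fold lower and 1 with a higher value. Tdo2, the dioxygenase that opens the indole ring, had signals of 2908 and 1454, 2.60-fold lower. Afmid, the formamidase that follows it, had signals of 877.4 and 380.2 at chr11:117700730-117700789 (mm9), a log2 difference of -1.58. The first and second steps of the pathway were therefore both past 2-fold. Kmo, the hydroxylase of the middle of the pathway, stood apart: its 2 probes gave signals of 8417 and 14724, and of 859.1 and 1449, with log2 differences of 0.43 and 0.38. Kynu, which cleaves kynurenines, had a mean log2 difference of -0.31 over 2 probes, and Haao had signals of 33308 and 22814 and a difference of -0.92. The median of the 5 was -0.92, and Kmo was above 0 at every setting.

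Among the 7 serine and glycine enzymes Agxt had by far the largest difference. Agxt, the alanine-glyoxylate aminotransferase that keeps glyoxylate from becoming oxalate, had signals of 65363 and 21127 at chr1:95041901-95041959 (mm9), 4.02-fold lower. Only 1.55% of all measured genes had a lower value. Gldc and Amt, 2 parts of the mitochondrial glycine cleavage system, were near 0, with signals of 6982 and 8737 for Gldc and 134.3 and 190.1 for Amt. Their log2 differences were -0.05 and 0.12, and Gldc changed sign with quantile normalization, to 0.13. The median of the 7 was -0.34, with 1 at least 2-fold lower.

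Histidine breakdown, a periportal pathway in 4 steps, had no member 2-fold apart. Hal, which removes the amino group of histidine, had signals of 28234 and 26976 and a log2 difference of -0.44. Uroc1, urocanase, had signals of 16523 and 25529 and a difference of 0.25, and Amdhd1, the third enzyme, 7092 and 9676 and a difference of 0.07. Ftcd, which hands the last fragment to folate, had signals of 33057 and 27985 and a difference of -0.62. The first and last enzymes thus lay below 0 and the middle ones above it, and the median, -0.19, turned to 0.02 with quantile normalization.

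Of the lysine, cysteine and choline-derived members, Aass and Csad were above 0 and Cdo1, Dmgdh and Sardh below it. Aass, which opens lysine breakdown, had signals of 15144 and 23966 and a log2 difference of 0.29, above 0 at every setting. Cdo1, which oxidizes cysteine, had signals of 19532 and 13285 and a difference of -0.93. Csad, which forms the taurine precursor hypotaurine, had signals of 1477 and 2892 and a difference of 0.59. Csad was the highest of the 42, at 1.51-fold, and 90.1% of all genes had a lower value. Dmgdh and Sardh, mitochondrial enzymes that strip methyl groups from dimethylglycine and sarcosine, were at -0.20 and -0.13, and at 0.00 and 0.08 with quantile normalization. Bcat2, the branched-chain aminotransferase found mostly outside hepatocytes, had dim signals of 325.1 and 284.0 and a difference of -0.57, and the median of the 3 branched-chain members was -0.57.

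**Figure D4:**
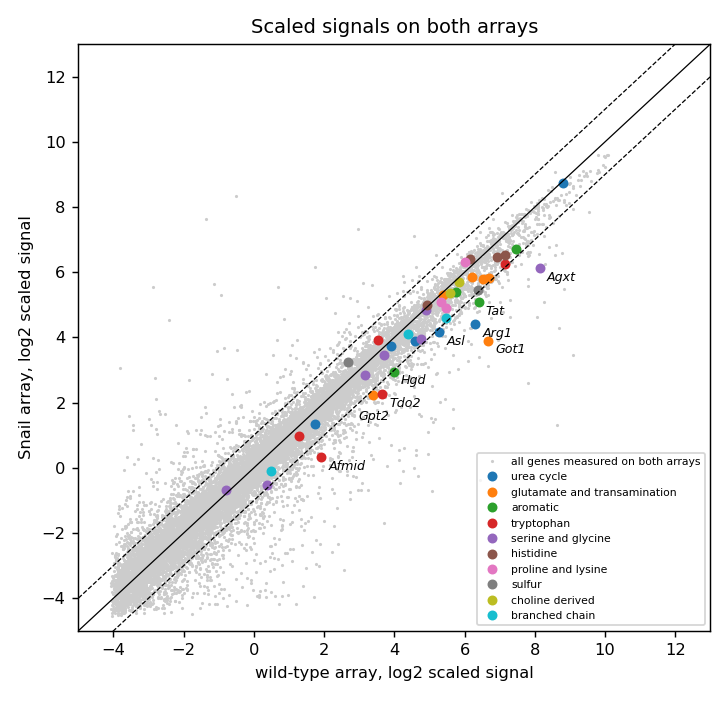
Log2 scaled signal of wild-type (horizontal axis) and of the library labelled Snail (vertical axis) for all 15447 genes measured on both (grey) and the 42 enzymes (coloured by pathway). The solid line marks equality and dashed lines 2-fold; the 9 named enzymes lie below the lower dashed line, Got1 at 6.66 and 3.90.

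Further genes of the same pathways were counted in the same way. Of 89 such genes, 77 were measured on both arrays and 61 of these were below 0, with a median log2 difference of -0.27. Values below 0 were found for 52.6% of all genes and 59.8% of those of high signal. At 2-fold, 7 (9.09%) were lower, near the 6.34% of all genes and 7.48% of those of high signal, and 1 was higher, where those shares were 3.97% and 2.25%. Hao1, the glycolate oxidase that makes the glyoxylate Agxt consumes, had signals of 2229 and 753.0, 3.84-fold lower. Gamt, which completes creatine synthesis, was 3.38-fold lower, Qprt, which carries quinolinate into NAD synthesis, 2.76-fold, and Oat, the pericentral ornithine aminotransferase, 2.56-fold. In the other direction Mcee, the methylmalonyl-CoA epimerase, and Agxt2, a mitochondrial aminotransferase, had log2 differences of 0.71 and 0.61. Asrgl1, with signals of 9.41 and 20.9, passed background in the library labelled Snail alone and was at least 1.16-fold higher. Hpdl did so too, with signals of 13.6 and 16.3 and a bound under 1, so no fold is given. All 5 measured companions of the aromatic pathway were below 0, with a median of -0.55. None of 17 measured branched-chain companions was 2-fold apart.

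Promoter windows of 300 bases, from 250 before to 50 after the start site, were found for 33 of the 42 members in RefSeq (GRCm38.p6), in 36 windows. The Snail-bound E-box CAGGTG, or its reverse complement CACCTG, was present in 10 of the 36 (27.8%) and in 20.2% of all 32851 windows. The C/EBP motif TTGCNNAA, or TTNNGCAA, was in 4 (11.1%) and in 10.8% of all. The HNF4A motif CAAAGTCCA or TGGACTTTG, in 0.475% of all windows, and the cAMP response element TGACGTCA, in 1.79%, were in none of the 36. No matches in the members' windows overlapped. Of the 7 members at least 2-fold lower with a window, 3 held the E-box: Tat, Hgd and Afmid. So did 1 of the 2 windows of Csad, the member with the highest value, and those of Ass1 and Gldc, both near 0. The other members with the E-box were Hpd, at -0.76, Bcat2, at -0.57, and Nags, at -0.39. Stretches upstream of the start site are shown for lower members with and without a match and for the Csad window with a match, with matches in capitals.
Tat, chr8:109990336-109990435, plus strand: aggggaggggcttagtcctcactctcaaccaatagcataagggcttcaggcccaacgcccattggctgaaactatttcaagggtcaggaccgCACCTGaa
Hgd, chr16:37579918-37580121, plus strand: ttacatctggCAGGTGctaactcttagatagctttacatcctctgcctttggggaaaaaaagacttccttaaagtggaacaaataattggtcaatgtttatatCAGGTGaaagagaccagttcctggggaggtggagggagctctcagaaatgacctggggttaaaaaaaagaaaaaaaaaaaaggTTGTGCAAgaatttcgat
Afmid, chr11:117825669-117825768, plus strand: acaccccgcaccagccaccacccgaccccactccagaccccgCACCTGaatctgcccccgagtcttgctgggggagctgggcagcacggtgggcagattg
Csad, chr15:102189080-102189179, minus strand: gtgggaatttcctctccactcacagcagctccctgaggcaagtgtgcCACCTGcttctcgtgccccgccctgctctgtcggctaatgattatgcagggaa
Got1, chr19:43524606-43524705, minus strand: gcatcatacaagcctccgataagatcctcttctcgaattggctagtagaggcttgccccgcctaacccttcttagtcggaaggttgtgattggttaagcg
Agxt, chr1:93135140-93135239, plus strand: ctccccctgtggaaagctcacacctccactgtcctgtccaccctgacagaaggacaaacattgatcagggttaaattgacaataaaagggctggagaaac
The 2 members with the largest differences, Got1 and Agxt, held none of the 4 motifs in their windows. A match is a run of letters and says nothing of binding in these livers.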

How the data were processed

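The authors deposited Agilent Feature Extraction 9.5.1.1 output, per the submitters' processing notes. The intensity values in it had been background-subtracted and detrended within each array, with no scaling across arrays recorded in the file headers. They also deposited a table of linear intensity values for 39429 probes, whose scaling is not stated. Its columns both had a median of 17.3, and its values for the members nearly equalled those with quantile normalization. For Got1 the log2 difference was -2.58 in either. The table thus behaves as quantile normalized and is no separate alternative to it. The 75th percentile of processed signals over 43020 non-control spots scaled each array before log2. Outlier marks removed 287 spots, and saturation affected none. Values were averaged over spots, then over a gene's probes above background on both arrays, under the files' gene names. Listed symbols not found there were sought by RefSeq accession. A bound compares the bright signal with the lowest signal well above background on the dim array, after scaling. Both arrays lay on 1 slide. Genes were counted at 2-fold, without a test. The named genes are all members, the 4 pathway genes with the largest difference in each direction, those with a bound, Alb and Glul, except a few that are not reported here; others are said to be named after their values were seen, or are markers named after their values were seen. Members, lists and alternatives were chosen with earlier results of these data known. Alternatives were normexp (limma 3.58.1, offset 50), quantile normalization, median centring, loess, 2 filters on dim probes, the authors' table, the brightest probe, naming by accession and 1.5-fold. The calculation was tested on simulated data.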

Additional observations from a re-analysis of the deposited data

How the results depend on the processing

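The median log2 difference of the 42 members, -0.51, was -0.40 with normexp, -0.34 with quantile normalization, -0.57 with median centring, -0.38 with loess and -0.34 in the authors' value table, and the same under the other alternatives run. At 2-fold, 7 to 10 members were lower and 0 higher under every alternative. Both filters on dim probes and naming by accession left every member unmoved, and the value table nearly repeated quantile normalization. Those alternatives thus add no separate check. At 1.5-fold, 19 were lower and 1 higher. Asl and Hgd were short of 2-fold with quantile normalization, loess and the value table, Hgd also with normexp, and Shmt1 passed it with the brightest probe, at -1.14. Otc, Ass1, Got2, Gldc, Dmgdh and Sardh changed sign under some alternative, and the other 36 members kept theirs under all alternatives run. Without a filter on dim probes the members were unmoved and the median of all genes was -0.47. That is the value that scaling gives a gene at the floor of both arrays. No member had only a bound, so including bounds changed nothing. No paired analysis was possible because each group has 1 array. Precision is limited by having 1 array a group.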

Other observations

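Regulators that act on these enzymes and markers of their zones were measured beside them. Of 13 regulators of amino acid breakdown 4 were at least 2-fold lower and 0 higher, with a median log2 difference of -0.57, where 6.34% of all genes were lower and 3.97% higher (7.48% and 2.25% of those of high signal). The 4, named after their values were seen, were the glucagon receptor gene Gcgr, with signals of 18542 and 6645, Sirt5, a mitochondrial deacylase that acts on carbamoyl phosphate synthetase, with 746.6 and 314.2, Klf15, a fasting-responsive factor of amino acid breakdown, with 1250 and 547.7, and Onecut1, with 240.6 and 145.4. Hnf4a, with signals of 16858 and 18506, was at -0.24. The values above 0 were those of Cebpb, at 0.08, and Creb1, at 0.87 with dim signals of 16.3 and 38.7.

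Markers of the pericentral zone, where remaining ammonia becomes glutamine, had a median of -1.36, with 5 of 7 measured genes at least 2-fold lower. Of all genes 6.34% were so, and of those of high signal 7.48%. Cyp2e1 and Oat, among the 5, were also counted in other lists above. The remaining marker, Lgr5 (named after its values were seen), passed background in wild-type alone and was at least 6.83-fold lower. Glul, the glutamine synthetase of that zone, had signals of 12029 and 12588 and a log2 difference of -0.31. Periportal markers had a median of -0.20, with 1 of 8 at least 2-fold lower, and that one was Cdh1 (named after its values were seen), with signals of 260.4 and 22.4. The difference between the zones was not tested.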
